A study of Homo sapiens with 12 samples.

Results

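OLFM4, MMP7 and GAL are 3 genes for secreted proteins, taken by symbol from the 59324 gene identifiers of an expression table of MDA-MB-468, a human basal-like triple-negative breast cancer cell line. They were chosen from measured values: each was low with SAHA alone, and none was lower with SAHA and sonidegib than with sonidegib alone. SAHA, or vorinostat, is an inhibitor of histone deacetylases, and sonidegib blocks Smoothened, the membrane protein that relays the Hedgehog signal. RNA sequencing covered 12 libraries in 4 groups of 3. The combination is labelled only as SAHA and sonidegib, with no dose, time or order. The SAHA group received 10 µM SAHA for 12 h, and the sonidegib group received 10 µM sonidegib, labelled as a pretreatment of 72 h. The same doses and times were assumed for the combination. The controls are labelled only as control, with no vehicle or time. All libraries come from the 1 cell line, and the labels do not say whether the libraries of a group were separate cultures. The p-values therefore measure the spread between these libraries, which may be technical.

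OLFM4 (olfactomedin 4) is a secreted glycoprotein known as a marker of intestinal crypt stem cells and as a protein of neutrophil granules. MMP7 (matrilysin) is a small secreted metalloproteinase of epithelial cells that cuts matrix proteins and sheds cell surface proteins, and its gene is a known target of β-catenin with TCF factors and of AP-1. GAL encodes the precursor of galanin, a neuropeptide that is cut out by proprotein convertases, amidated and bound by the receptors GALR1, GALR2 and GALR3. All 3 genes are known to be expressed in carcinomas.

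Promoters were looked up for all 3 genes, and those of OLFM4 and MMP7 are shown. The sequences come from the RefSeq promoter table on build GRCh38, which gives 250 bases before and 50 after each start and holds no entry for GAL. Each is printed from the far end of its window up to the earlier of the RefSeq and GENCODE starts. Capitals mark letters that match a searched motif on either strand. The motifs were the TATA box TATAAA, the AP-1 site TGANTCA, the TCF/LEF core CTTTGA, the ETS core AGGAAG and the GLI core ACCACCC.
OLFM4, chr13:53028563-53028758, plus strand: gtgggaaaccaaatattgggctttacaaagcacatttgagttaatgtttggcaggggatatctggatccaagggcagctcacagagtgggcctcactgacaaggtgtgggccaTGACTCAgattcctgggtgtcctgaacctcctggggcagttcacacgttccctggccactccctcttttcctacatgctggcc
MMP7, chr11:102530754-102530997, minus strand: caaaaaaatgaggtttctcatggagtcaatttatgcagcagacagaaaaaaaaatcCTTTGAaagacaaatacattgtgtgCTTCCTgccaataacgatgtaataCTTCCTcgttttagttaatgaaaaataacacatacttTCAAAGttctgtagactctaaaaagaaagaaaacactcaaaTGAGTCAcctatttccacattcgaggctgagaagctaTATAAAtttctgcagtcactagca
Both windows hold an AP-1 match, at 137 to 131 bases before the RefSeq start in OLFM4 and at 67 to 61 bases in MMP7. This motif is in 6.57% of the 35116 promoter windows of 250 bases. The MMP7 window also holds TATAAA at 30 to 25 bases before the start, a motif in 10.7% of windows. It holds CTTTGA at 194 to 189 bases and, on the other strand, TCAAAG at 108 to 103 bases, and 11.2% of windows hold this core. The ETS core lies on the other strand at 169 to 164 and at 145 to 140 bases, and 28.7% of windows hold it. The GLI core, in 4.15% of windows, has no match in either. The OLFM4 and MMP7 windows hold 1 and 3 CpG, against a median of 11 over all windows, and 14.7% and 29.3% of windows have at most as many. These matches describe letters and not binding.

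Expression was given as TPM, a level per transcript length scaled to the library's total. Differences between groups are log2 differences of TPM + 1 with their standard error (SE) from 1 limma fit over the 12 libraries. The 13937 genes that averaged 1 TPM or more were tested, the 3 genes among them, and a gene was called at a Benjamini-Hochberg adjusted p under 0.05. In control libraries MMP7 ranked 821, OLFM4 886 and GAL 4137 among the tested genes by level. No annotated gene overlaps any of the 3.

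The libraries had 13204 to 13874 genes at 1 TPM or more, and since TPM keep no counts their depth is unknown. A list of 9 genes expected in a basal breast line held EGFR, CDH1, EPCAM and keratins, luminal ones among them. Its summed level was 4069.13 to 4245.34 TPM in combination libraries and 7901.01 to 8256.56 TPM in SAHA libraries. It was 4085.69 to 4219.66 TPM in sonidegib libraries, against 6980.39 to 7637.74 TPM in control libraries. KRT7, KRT8 and KRT18, keratins of luminal epithelium, averaged 1020, 865 and 739 TPM with sonidegib, against 2080, 1860 and 1460 TPM in controls. KRT5 averaged 489 TPM and 579 TPM, and EGFR 658 TPM and 623 TPM, in the same groups. KRT17 averaged 1360 TPM with SAHA and 159 TPM with sonidegib, against 297 TPM in controls. KRT6B averaged 15.9 TPM with SAHA and 31.4 TPM with sonidegib, against 78 TPM in controls. EPCAM averaged 188 TPM with sonidegib, against 336 TPM in controls. Of the 9 genes, 7 were called lower with sonidegib and 0 higher, beside 29.2% and 26.1% of all tested genes. PGR was at 0 in all libraries, and the summed level of ESR1, PGR and ERBB2 was at most 27.11 TPM in any. The 10 neutrophil and leukocyte markers, relevant because OLFM4 is a neutrophil protein, summed to 9 to 10.08 TPM in combination libraries, 9.76 to 11.74 TPM in SAHA libraries and 10.9 to 12.57 TPM in sonidegib libraries, against 3.63 to 4.89 TPM in control libraries, and 2 were at 0 in all. This sum is CD68 alone in nearly all of its amount, at 9.51 TPM in the combination, 10.2 TPM with SAHA and 11.3 TPM with sonidegib, against 4.21 TPM in controls. No other marker of the list was above 0.49 TPM in any library. The 7 neuroendocrine markers, relevant to galanin, summed to at most 4.78 TPM in any library, and 4 were at 0 in all. The 8 fibroblast and endothelial markers summed to at most 13.85 TPM, and 1 was at 0 in all. The 5S ribosomal RNA genes set the libraries apart: they summed to 1487.53 to 12640.67 TPM in the 6 libraries with sonidegib, against 0 TPM in the 6 without. Comparisons of sonidegib with control and of the combination with SAHA cross these sets, while both comparisons of libraries with and without SAHA stay within one for these RNAs. Mitochondrial genes moved with SAHA, at 10.2% to 12.5% of TPM in combination libraries and 8.55% to 9.94% in sonidegib libraries, and at 10% to 11.7% in SAHA libraries, against 6.88% to 8.26% in control libraries. In a fit without ribosomal RNA and mitochondrial genes, SAHA against control was -3.21 for OLFM4, -3.13 for MMP7 and -2.73 for GAL. A few more values of this fit are given with the other alternatives at the end. The part of these RNAs in the results was otherwise not tested.

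OLFM4 (ENSG00000102837) lies at chr13:53028759-53052057 on the plus strand. Its level was 88.75, 72.78 and 90.67 TPM in combination libraries, 16.66, 14 and 17.13 TPM in SAHA libraries and 75.57, 81.47 and 89.13 TPM in sonidegib libraries, against 155.03, 155.75 and 169.61 TPM in control libraries. Every control library was above every other library, every SAHA library was below every other one, and the combination and sonidegib libraries overlapped between them. As means, OLFM4 stood at 84.1 ± 9.82 TPM in the combination, 15.9 ± 1.69 TPM with SAHA and 82.1 ± 6.8 TPM with sonidegib, against 160 ± 8.22 TPM in controls (SD, n = 3 each). These are 52.5%, 9.95% and 51.2% of the control mean. OLFM4 thus had 3 separate levels in the 4 groups.

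MMP7 (ENSG00000137673) lies at chr11:102520508-102530753 on the minus strand. Its level was 222.6, 211.87 and 235.41 TPM in combination libraries, 17.37, 16.42 and 20.03 TPM in SAHA libraries and 214.19, 203.35 and 220 TPM in sonidegib libraries, against 129.24, 183.2 and 208.09 TPM in control libraries. The SAHA libraries stood far below all others. The sonidegib libraries overlapped both the combination and the control libraries, and the lowest combination library was just above the highest control. Group means were 223 ± 11.8 TPM in the combination, 17.9 ± 1.87 TPM with SAHA and 213 ± 8.45 TPM with sonidegib, against 174 ± 40.3 TPM in controls (SD, n = 3 each). That is 129%, 10.3% and 122% of the control mean. The spread between controls was the widest of any group, a coefficient of variation of 23.2%.

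GAL (ENSG00000069482) lies at chr11:68683779-68691175 on the plus strand. Its level was 4.38, 3.9 and 2.79 TPM in combination libraries, 3.02, 2.17 and 4.29 TPM in SAHA libraries and 2.79, 2.24 and 2.34 TPM in sonidegib libraries, against 25.14, 26.56 and 27.27 TPM in control libraries. The 3 treated groups overlapped or touched, and all of them were far below the controls. Means were 3.69 ± 0.816 TPM in the combination, 3.16 ± 1.07 TPM with SAHA and 2.46 ± 0.293 TPM with sonidegib, against 26.3 ± 1.08 TPM in controls (SD, n = 3 each). These are 14%, 12% and 9.33% of the control mean. In bulk libraries, fewer cells that express a gene and less RNA per cell cannot be told apart.

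**Figure D1:**
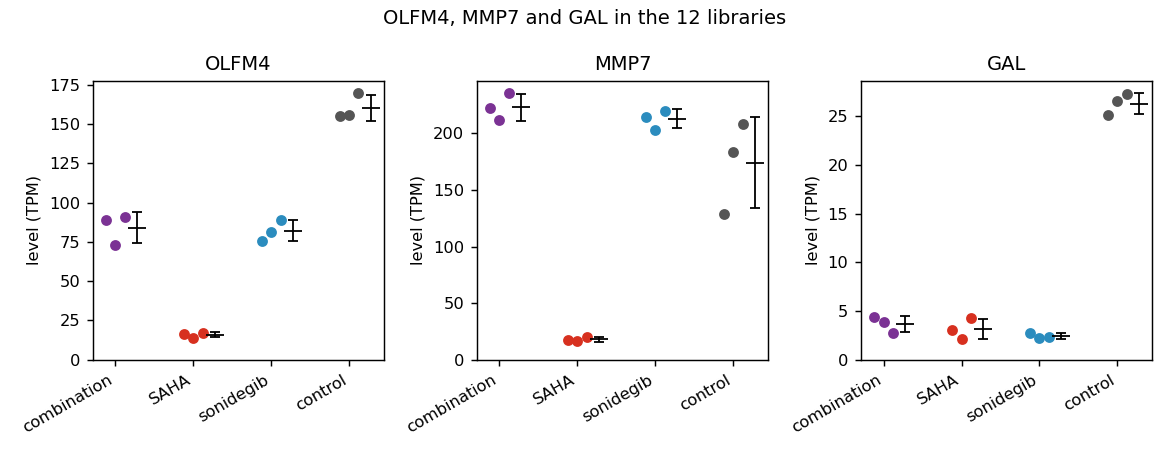
Level of OLFM4, MMP7 and GAL in TPM (vertical axis) in each of the 12 libraries (points) by group, with the group mean and SD. SAHA alone gave about 10% of the control mean of OLFM4 and MMP7, while GAL was low with sonidegib alone (9.33%) as well as with SAHA (12%).

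The description of the genes as spared after sonidegib fitted MMP7, fitted OLFM4 in part and did not hold for GAL. For MMP7, the level in both sonidegib groups was at or above the control mean. For OLFM4, it was 52.5% of the control mean in the combination and 51.2% with sonidegib. GAL was as low after sonidegib, at 14% in the combination and 9.33% with sonidegib alone, as the 12% it had with SAHA.

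The choice of the 3 genes used the levels of all 4 groups, so every comparison of them is given as a description with no test. Between sonidegib and control, OLFM4 differed by -0.96 ± 0.10 (log2 difference ± SE; 1.95-fold lower), with all 3 sonidegib libraries below all 3 controls. GAL differed by -2.99 ± 0.18 (10.7-fold lower) and ranked 17 from the lowest of the 13937 log2 differences, again with no overlap between the groups. MMP7 differed by 0.32 ± 0.14, with overlapping groups. The MMP7 value moved with the control left out: it was 0.12 without control replicate 1, 0.37 without control replicate 2 and 0.46 without control replicate 3. In this comparison 29.2% of tested genes were called lower and 26.1% higher, and 32.8% were lower with no overlap between libraries.

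Between SAHA and control, OLFM4 differed by -3.25 ± 0.10 (10.1-fold lower), MMP7 by -3.18 ± 0.14 (9.67-fold lower) and GAL by -2.75 ± 0.18 (8.33-fold lower). From the lowest of the 13937 log2 differences, they ranked 4, 8 and 22. None of the 3 overlapped between these groups, which was so for 29.3% of tested genes in the direction of lower with SAHA. Between the combination and sonidegib, OLFM4 differed by 0.03 ± 0.10, MMP7 by 0.07 ± 0.14 and GAL by 0.43 ± 0.18. No group mean of the 3 was lower in the combination than with sonidegib alone. The interaction, combination minus sonidegib minus SAHA plus control, was 3.29 ± 0.14 for OLFM4, 3.25 ± 0.20 for MMP7 and 3.17 ± 0.25 for GAL. They ranked 12, 13 and 14 from the highest of all tested genes, although their levels in the combination were 84.1, 223 and 3.69 TPM.

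The combination against SAHA separated them. MMP7 differed by 3.57 ± 0.14 (12.4-fold higher in the combination), OLFM4 by 2.33 ± 0.10 (5.28-fold higher) and GAL by 0.19 ± 0.18. Against control, the combination differed by 0.39 ± 0.14 for MMP7, by -0.93 ± 0.10 for OLFM4 and by -2.56 ± 0.18 for GAL. Without control replicate 1, the MMP7 difference between combination and control was 0.19. With no overlap between libraries, 20.8% of tested genes were higher in the combination than with SAHA, 31.2% were higher and 35.6% lower than in control.

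**Figure D2:**
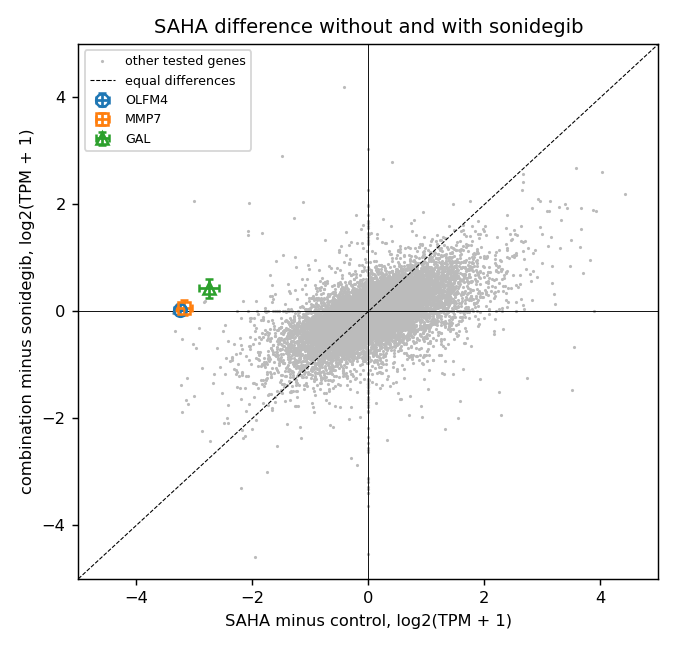
Each tested gene as a grey point, with the log2 difference of combination against sonidegib on the vertical axis and of SAHA against control on the horizontal axis, and OLFM4, MMP7 and GAL marked with SE bars. The 3 genes lie near 0 on the vertical axis (0.03, 0.07 and 0.43) at -3.25, -3.18 and -2.75 on the horizontal one.

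Other genes were also called lower with SAHA and not called lower in the combination, although a gene that was not called may still have fallen. Of 3746 genes called lower with SAHA than in control, 1928 were also called lower in the combination than with sonidegib, 82 were called higher and 1736 were not called. These 3746 genes are 26.9% of those tested, and 21.0% of tested genes were called lower in the combination than with sonidegib. Of 73 genes at least 2 log2 units lower with SAHA, 54 were also called lower in the combination, and 19 were not called. Among these 19, 12 were called lower with sonidegib alone than in control and 7 were not called. In that comparison 29.2% of all tested genes were called lower and 26.1% higher. The log2 difference of combination against sonidegib reached -1.25 (RNU12) among the 19, and -0.64 for NR2F6. At a difference of at least 1 log2 unit, 211 of 800 genes were not called in the combination, and 127, 12 and 72 of the 211 were lower, higher and not called with sonidegib alone. These sets were drawn from the values they describe. The comparisons of SAHA and of sonidegib with control share the same control libraries, so a high control value lowers both.

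Of the 19 genes, 13 are protein-coding, and their levels show the range of the pattern. Near OLFM4 were C1orf53, at 47.6% of the control mean in the combination, 6.88% with SAHA and 41.9% with sonidegib, and ZNF367, at 42.9%, 9.91% and 52.9%. Near GAL was the chemokine gene CCL2, at 17.4% in the combination, 13.4% with SAHA and 18.9% with sonidegib. ATF5, a stress-responsive transcription factor, was lowest in the combination, at 5.16% against 14.4% with SAHA and 7.84% with sonidegib. AC037459.1 was at 87.4% in the combination, 18.7% with SAHA and 117% with sonidegib.

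**Figure D3:**
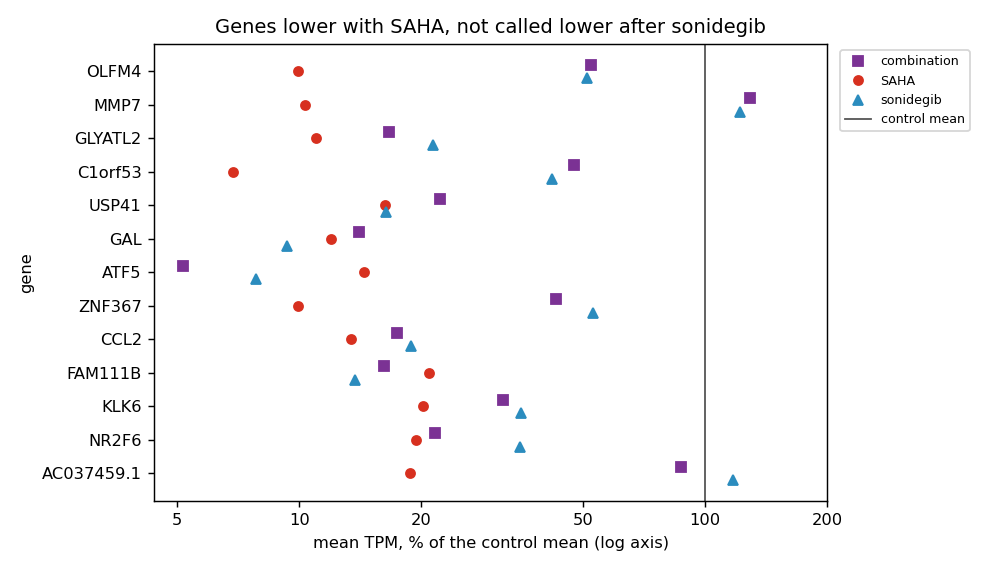
Mean level in the combination, SAHA and sonidegib groups as a percentage of the control mean (horizontal log axis) for the 13 protein-coding genes at least 2 log2 units lower with SAHA and not called between combination and sonidegib. MMP7 (129% in the combination, 122% with sonidegib) lies above the control line, OLFM4 (52.5% and 51.2%) between, and GAL (14% and 9.33%) far to the left.

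Among themselves, the log2 levels of OLFM4 and MMP7 had a Pearson r of 0.907 over the 12 libraries, OLFM4 and GAL 0.601, and MMP7 and GAL 0.233. These values describe the 4 group levels, which all libraries of a group share. The protein-coding genes most like OLFM4 were ZNF367 (r = 0.982), BTF3 (0.981), RFC3 (0.981), POLD3 (0.977) and C1orf53 (0.975). RFC3 and POLD3 are subunits of the replication clamp loader and of DNA polymerase delta. Most like MMP7 were CDCA5 (0.988), SNRPA (0.985), S100A2 (0.985), RPL17 (0.977) and SLC25A5 (0.976). CDCA5, the cohesin regulator sororin, had mean levels of 46.9 TPM in the combination, 15.2 TPM with SAHA and 54 TPM with sonidegib, against 41.6 TPM in controls. S100A2, a calcium-binding protein of basal epithelium, had 91.2, 24.3 and 102 TPM in the same groups, against 80.1 TPM in controls. Most like GAL were SERBP1 (0.978), OTUB1 (0.969), APRT (0.964), VDAC1 (0.962) and MRPS7 (0.961), whose folds were far smaller. The log2 differences of SAHA against control were also smaller in size for the genes most like OLFM4 (-2.84 to -0.75) and MMP7 (-1.67 to -0.47). SERBP1, an mRNA-binding protein, had 423 TPM in the combination, 392 TPM with SAHA and 388 TPM with sonidegib, against 674 TPM in controls. For the mean of the 3 standardised profiles the order was C1orf53 (0.986), KLK5 (0.978), ZNF367 (0.975), NME2 (0.973) and HNRNPA1 (0.971). The 5 genes named for each profile depended on the processing. For GAL, under quantile normalization 0 of them remained among the top 5. Over 17 alternatives, as few as 3 of the 5 remained for OLFM4, for MMP7 and for the mean profile.

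The relatives of MMP7 did not share its profile. Of 22 other matrix metalloproteinases, 4 passed the filter of 1 TPM. Of these, 3 rose with SAHA and the other one was not called, where 31.8% of tested genes were called higher and 26.9% lower, and their median log2 difference was 1.45 against 0.045 over all genes. MMP15, a membrane-type enzyme, averaged 73.5 ± 2.32 TPM with SAHA and 24.6 ± 1.66 TPM in controls (SD, n = 3 each; log2 difference 1.54 ± 0.06, limma adjusted p = 4.29e-09). MMP2, gelatinase A, averaged 7.12 ± 0.801 TPM with SAHA and 1.45 ± 0.161 TPM in controls (1.72 ± 0.11, limma adjusted p = 1.74e-07). MMP17 also rose (1.35 ± 0.19, limma adjusted p = 8.73e-05), and MMP14, an activator of MMP2 at the cell surface, differed by -0.15 ± 0.10 (adjusted p = 0.216).

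Between the combination and sonidegib, MMP15 (0.43) and MMP2 (0.34) rose by less and MMP14 fell (-1.18 ± 0.10, limma adjusted p = 6.81e-06), where 17.5% of tested genes were called higher, and MMP17 differed by 0.34 ± 0.19 (adjusted p = 0.187). The call of MMP2 was lost under other settings, among them a fit with no filter on low values (adjusted p = 0.0667). All 4 enzymes were called lower for the interaction, -1.38 for MMP2, -1.02 for MMP14, -1.11 for MMP15 and -1.01 for MMP17, where 19.7% of tested genes were called lower and 11.8% higher for the interaction. MMP7's interaction had the opposite sign. MMP14 averaged 11.8 ± 0.275 TPM in the combination and 27.9 ± 0.745 TPM with sonidegib. The genes of the 11q22 cluster around MMP7 (MMP1, MMP3, MMP8, MMP10, MMP12, MMP13, MMP20 and MMP27) had group means of at most 0.0767 TPM.

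Of 4 tested inhibitors of these enzymes, 2 rose and 1 fell with SAHA, beside 31.8% and 26.9% of all tested genes. TIMP2 averaged 49.9 ± 0.691 TPM with SAHA and 12.7 ± 1.02 TPM in controls (1.90 ± 0.07, limma adjusted p = 1.69e-09), and 16.4 ± 0.682 TPM in the combination and 19.4 ± 0.299 TPM with sonidegib (-0.23 ± 0.07, limma adjusted p = 0.0151). Its interaction was -2.13 ± 0.09 (limma adjusted p = 1.9e-07), so TIMP2 was high in the group where MMP7 was low. RECK, a membrane-anchored inhibitor, rose with SAHA (1.39 ± 0.11, limma adjusted p = 7.27e-07) and with sonidegib (0.91 ± 0.11, limma adjusted p = 2.96e-05). TIMP3 fell in both, by 0.74 with SAHA and by 1.27 with sonidegib on the log2 scale. TIMP1, at 85.1 TPM with SAHA and 88.9 TPM in controls, differed by -0.06 ± 0.07 with SAHA (adjusted p = 0.478) and rose with sonidegib (129 ± 10.2 TPM, 0.53 ± 0.07, limma adjusted p = 6.08e-05).

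Of 12 other olfactomedin-domain genes, 4 passed the filter. OLFM2, ADGRL1 and ADGRL2, which were above 1 TPM in every group, rose with SAHA, as did 31.8% of all tested genes. OLFM2, a secreted family member, averaged 33.2 ± 1.72 TPM with SAHA and 11 ± 3.17 TPM in controls (1.55 ± 0.20, limma adjusted p = 3.84e-05). The adhesion receptors ADGRL1 and ADGRL2 rose by 0.42 ± 0.09 (limma adjusted p = 0.00209) and 0.84 ± 0.12 (limma adjusted p = 9.34e-05). OLFML2A, at 1.88 TPM with SAHA and 0.467 TPM in controls, passed the filter through the treated groups only, so its rise (0.97 ± 0.14) was fixed in part by the filter. OLFML3, at 0.02 TPM with SAHA and 0.797 TPM in controls, was below the filter. Between combination and sonidegib, 0 of the 4 were called by limma, where 17.5% of all tested genes were higher and 21.0% lower, and 1 had an unadjusted p under 0.05. That was ADGRL2 (0.30 ± 0.12, adjusted p = 0.0686), which passed under median-of-ratios scaling (0.33, adjusted p = 0.0203). In that comparison OLFM2 stood at 13 ± 1.26 TPM in the combination and 15.7 ± 4.49 TPM with sonidegib. OLFM2 had an interaction of -1.78 ± 0.28 (limma adjusted p = 0.000664) and ADGRL1 of -0.54 ± 0.13 (limma adjusted p = 0.00877), where OLFM4's was positive and 19.7% of all tested genes were called lower. The ADGRL2 interaction (-0.54) was not called when any of 7 libraries was left out. OLFM1 and OLFM3 were at or near 0.

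**Figure D4:**
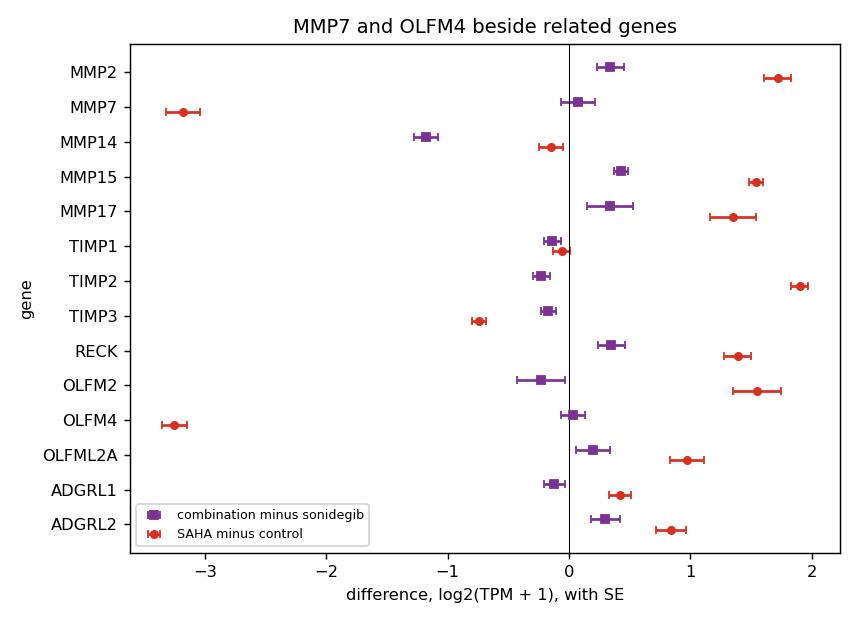
Log2 difference ± SE of combination against sonidegib and of SAHA against control for MMP7, OLFM4 and the tested members of their families and inhibitors. MMP7 (-3.18) and OLFM4 (-3.25) lie far below 0 for SAHA, where MMP2, MMP15, MMP17, TIMP2, RECK, OLFM2, OLFML2A, ADGRL1 and ADGRL2 lie above 0. TIMP3 (-0.74), MMP14 (-0.15) and TIMP1 (-0.06) also lie below 0 for SAHA.

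Galanin had few partners in these cells. None of the 7 other genes of its family and receptors passed the filter. GALR1 was at 0 in all libraries, and GALR3 and GALP had group means of at most 0.21 TPM. GALR2 averaged 0.163 TPM in the combination, 0.44 TPM with SAHA and 0.31 TPM with sonidegib, against 1.39 TPM in controls, which are too low to have been tested. Of 11 genes for the processing of peptide precursors, 7 were tested. PCSK1N and SCG5 in this list are not enzymes, and PCSK1N was tested. With sonidegib 5 rose, PCSK1N among them, and 1 fell, beside 26.1% and 29.2% of all tested genes. The convertases PCSK1 and PCSK2 had group means of at most 0.0333 TPM and 0.00667 TPM. PAM, which amidates galanin, averaged 82.7 ± 3.67 TPM with sonidegib and 40 ± 4.69 TPM in controls (SD, n = 3 each; 1.03 ± 0.09, limma adjusted p = 2.57e-06). CPE, which trims basic residues, rose with sonidegib (0.67 ± 0.15, limma adjusted p = 0.00248). The convertase PCSK7 fell (-0.92 ± 0.09, limma adjusted p = 5.59e-06). The convertase FURIN rose with SAHA (1.08 ± 0.11, limma adjusted p = 4.65e-06).

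Of 12 tested genes for substrates and binding partners of MMP7, 6 rose and 4 fell with SAHA, against 31.8% and 26.9% of all tested genes. CD44, which holds MMP7 at the membrane, averaged 438 ± 9.92 TPM with SAHA and 1020 ± 23.3 TPM in controls (-1.22 ± 0.04, limma adjusted p = 1.34e-09). It also fell in the combination against sonidegib (931 ± 39.9 TPM and 1380 ± 21.8 TPM, -0.57 ± 0.04, limma adjusted p = 1.78e-06), where MMP7 differed by 0.07. HBEGF, a growth factor that MMP7 releases, rose with SAHA (1.79 ± 0.13, limma adjusted p = 3e-07) and in the combination against sonidegib (1.32 ± 0.13, limma adjusted p = 1.39e-05). Of 9 tested genes of OLFM4 partners and of intestinal crypts, 2 rose and 3 fell with SAHA, which is near the 31.8% and 26.9% of all tested genes. LGR5, the crypt stem cell receptor, was at 0 in all libraries. Among them CTSC, the protease cathepsin C, which OLFM4 is known to bind, fell with SAHA (-0.79 ± 0.10, limma adjusted p = 4.93e-05) and with sonidegib (-0.58 ± 0.10, limma adjusted p = 0.000638).

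Of 19 tested transcription regulators known at MMP7, 10 rose and 3 fell with SAHA, beside 31.8% and 26.9% of all tested genes. For the interaction 1 was higher and 10 were lower, beside 11.8% and 19.7% of all tested genes. FOS, a subunit of AP-1, averaged 16.3 ± 1.35 TPM with SAHA and 2.81 ± 0.445 TPM in controls (2.19 ± 0.12, limma adjusted p = 3.99e-08), with an interaction of -1.12 ± 0.17, the size of which was why it was named. JUN, its partner, rose with SAHA (1.26 ± 0.09, limma adjusted p = 2.96e-07) and in the combination against sonidegib (1.33 ± 0.09, limma adjusted p = 1.07e-06). CTNNB1, which encodes β-catenin, averaged 182 ± 5.07 TPM with SAHA and 232 ± 11.4 TPM in controls (-0.35 ± 0.10, limma adjusted p = 0.00929). Sonidegib also had it lower (126 ± 7.13 TPM, -0.87 ± 0.10 against control, limma adjusted p = 1.92e-05), where MMP7 was not.

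Of 13 tested regulators known at OLFM4, 3 rose and 6 fell with SAHA, beside 31.8% and 26.9% of all tested genes. The NF-kB subunits differed: NFKB1 fell with SAHA (-1.22 ± 0.16, limma adjusted p = 5.41e-05) and in the combination against sonidegib (-1.03 ± 0.16, limma adjusted p = 0.000495), NFKB2 rose with SAHA (1.33 ± 0.10, limma adjusted p = 3.63e-07), and RELA differed by -0.09 ± 0.06 with SAHA (adjusted p = 0.279). HES1, a Notch target that represses transcription, rose with sonidegib (0.95 ± 0.08, limma adjusted p = 1.37e-06). Of 11 tested genes listed for the regulation of GAL, 6 rose and 1 fell with SAHA, beside 31.8% and 26.9% of all tested genes. This list includes the cytokine receptor subunits LIFR, IL6ST and OSMR, and LIFR and OSMR were among those that rose. NR4A1, an immediate early nuclear receptor, averaged 24.2 ± 2.48 TPM with SAHA and 2.37 ± 0.331 TPM in controls (2.91 ± 0.13, limma adjusted p = 8.32e-09).

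Among 36 tested genes for other secreted epithelial proteins, 11 rose and 9 fell with SAHA, near the 31.8% and 26.9% of all tested genes, with a median of 0.03. The kallikrein-related proteases KLK5, KLK6 and KLK10 were among those that fell. KLK5 averaged 164 ± 12.8 TPM in the combination, 77 ± 1.55 TPM with SAHA and 143 ± 5.54 TPM with sonidegib, against 298 ± 20.7 TPM in controls (SD, n = 3 each). It fell with SAHA (-1.94 ± 0.07, limma adjusted p = 1.52e-09) and with sonidegib (-1.05 ± 0.07, limma adjusted p = 2.02e-07), in the order of levels seen for OLFM4. The combination was above sonidegib by 0.19 ± 0.07 (limma adjusted p = 0.0371). This call was kept in only 12 of 22 alternatives, and 2 other scalings were among those that lost it. KLK6 had 6.21 TPM in the combination, 3.94 TPM with SAHA and 6.84 TPM with sonidegib, against 19.5 TPM in controls. KLK10 fell with SAHA (-1.42 ± 0.22, limma adjusted p = 0.000164) and differed by -0.54 ± 0.22 with sonidegib (adjusted p = 0.0543).

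The chromosomal neighbours of the 3 genes were compared within 500 kb. Near MMP7, 4 of 13 protein-coding genes were tested and 5 were at 0 in all libraries. TMEM123, 60.4 kb away, averaged 198 ± 23 TPM in the combination, 117 ± 27.7 TPM with SAHA and 230 ± 19.6 TPM with sonidegib, against 275 ± 54.9 TPM in controls. It fell with SAHA (-1.23 ± 0.18, limma adjusted p = 9.78e-05), with an interaction of 1.02 ± 0.25. BIRC2, 184 kb away, differed by 0.33 ± 0.17 with SAHA (adjusted p = 0.113) and BIRC3, 213 kb away, by 0.05 ± 0.29 (adjusted p = 0.912). YAP1, a transcriptional co-activator, fell with SAHA (-1.04 ± 0.11, limma adjusted p = 9.27e-06) and in the combination against sonidegib (-0.48 ± 0.11, limma adjusted p = 0.00559).

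Near GAL, 9 of 12 protein-coding genes were tested. With SAHA, KMT5B and LRP5 (-1.22 each) and MRPL21 (-0.13) were called lower, and IGHMBP2 (0.29) higher. The MRPL21 call was kept in only 8 of 22 alternatives and the IGHMBP2 call in 15 of 22. Of all tested genes, 26.9% were called lower and 31.8% higher with SAHA. With sonidegib, MRPL21 (-1.06), C11orf24 (-0.96), KMT5B (-0.48), PPP6R3 (-0.47) and TPCN2 (-0.39) were called lower. LRP5 (0.32) and CPT1A (0.24) were called higher with sonidegib. Of all tested genes, 29.2% were called lower and 26.1% higher with sonidegib. TESMIN, 67.8 kb away, fell with SAHA (-1.69 ± 0.20, limma adjusted p = 2.27e-05) but averaged 15.5 ± 0.657 TPM with sonidegib and 15.1 ± 1.34 TPM in controls, where GAL was 10.7-fold lower. CPT1A, the carnitine palmitoyltransferase of fatty acid oxidation, rose with SAHA (1.47 ± 0.06, limma adjusted p = 9.39e-09), with 73 ± 3.48 TPM against 25.8 ± 1.87 TPM in controls. Near OLFM4, 3 of 4 protein-coding genes were tested. PCDH8, a protocadherin, fell with sonidegib (-1.58 ± 0.21, limma adjusted p = 6e-05) and differed by 0.03 ± 0.21 with SAHA (adjusted p = 0.916). SUGT1, 376 kb away, rose with SAHA (0.48 ± 0.09, limma adjusted p = 0.000697) and in the combination against sonidegib (0.47 ± 0.09, limma adjusted p = 0.00164). It was lower with sonidegib than in control (-0.30 ± 0.09, limma adjusted p = 0.0149).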

How the data were processed

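Total RNA of 12 MDA-MB-468 libraries was extracted with TRIzol and sequenced on Illumina libraries, per the labels' protocols. The authors deposited 1 table of TPM, a column per library, each summing to 999999 to 1000001. Bowtie2 2.4.1 and GRCh38 are named in the submitters' processing notes. The quantifier, annotation, filters and strandedness are not given in the sources used here, and antisense reads cannot be told apart. Of the identifiers 58611 matched GENCODE 29. TPM keep no counts, so no counting interval was computed.

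Groups came from the labels, and the doses and times of the combination were assumed from the single-drug labels. Differences of log2(TPM + 1) were fitted with limma 3.58.1 (R 4.3.3; lmFit, contrasts.fit, eBayes with trend), 4 group means, 8 residual degrees of freedom, two-sided, with Benjamini-Hochberg adjustment over 13937 genes of 29345 above 0 in any library. The fit was tested on simulated data. A test of the 3 genes between sonidegib and control had been planned, but is not reported, because their choice used all 4 groups. Likeness, neighbours and promoters used Python 3.11.15 and pandas 2.3.3.

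The genes, the 11 gene lists and 5 marker lists were chosen with earlier results of these data known. Named genes were the 3 genes, the 5 most similar to each profile, tested family and processing genes, up to 4 per other list by interaction, and called neighbours within 500 kb. Others (CD44, HBEGF, JUN, CTNNB1, NFKB1, HES1, GALR2, RELA, BIRC2, BIRC3, CD68, OLFML3, RNU12, CCL2, ATF5 and AC037459.1) were named after their values were seen. Alternatives were other pseudocounts, filters, scalings, variance models, a replicate block and each library left out.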

Additional observations from a re-analysis of the deposited data

Results flagged for a closer look

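For 39 genes named beside OLFM4, MMP7 and GAL, the SAHA difference on the sonidegib background differed from that without it, by limma's interaction test. Values are combination minus sonidegib minus SAHA plus control on the log2 scale, and their causes were not tested. Outside the families and the processing genes, genes were named for the size of this value or because a comparison called them, so their number carries no weight. The call was lost in at least 1 alternative for 8 of the 39, most often for ADGRL2 and PCDH8 (8 alternatives each) and CPD (7).

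Among metalloproteinases and inhibitors the values were -1.38 for MMP2, -1.02 for MMP14, -1.11 for MMP15, -1.01 for MMP17, -2.13 for TIMP2, 0.57 for TIMP3 and -1.05 for RECK. Among olfactomedin-domain genes they were -1.78 for OLFM2, -0.78 for OLFML2A, -0.54 for ADGRL1 and -0.54 for ADGRL2. Peptide processing genes had -0.53 for PCSK1N, -0.46 for CPD and -0.79 for FURIN.

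Partners of MMP7 had -1.33 for FN1, -1.31 for ITGB4, -1.23 for AREG and -0.69 for CD9, and the OLFM4 and crypt list had 0.67 for CTSC and -0.66 for EPHB2. The regulator lists had -1.36 for ETV1, -1.31 for KLF4, -1.12 for FOS, -1.09 for FOSL2, -1.07 for NFKB2, -2.27 for NR4A1, -1.05 for CREB3 and -0.75 for the receptor subunit OSMR.

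Secreted proteins had 2.13 for KLK5, 1.93 for KLK6, 1.65 for PIP and 1.42 for KLK10, and PIP was at most 0.14 TPM in any SAHA library. Neighbours had 0.90 for PCDH8, 0.56 for YAP1, 1.02 for TMEM123, 0.43 for KMT5B, -1.45 for CPT1A, 0.32 for C11orf24 and 0.26 for MRPL21.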

How the results depend on the processing

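Between sonidegib and control, OLFM4 was -1.02 to -0.75 and GAL -3.37 to -2.94 over 22 alternatives. MMP7 was 0.34 under median-of-ratios scaling, 0.55 under quantile normalization, 0.35 without ribosomal RNA and mitochondrial genes, 0.32 with a replicate block, and 0.12 to 0.46 with 1 library left out.

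With 1 library left out, MMP7 ranged from -3.38 to -3.04 for SAHA against control, 3.11 to 3.45 for the interaction and 0.19 to 0.53 for combination against control. Under a pseudocount of 0.1, GAL was -3.07 for SAHA against control, 3.62 for the interaction (3.40 with 0.5) and -2.82 for combination against control. OLFM4 for combination against SAHA was 2.46 under median-of-ratios scaling and 2.49 under quantile normalization, and MMP7 3.77 under the second. Under quantile normalization, combination against control was -0.72 for OLFM4 and 0.64 for MMP7.

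KLK10 between combination and sonidegib, near 0 in the main analysis, turned positive under median-of-ratios scaling (0.02), quantile normalization (0.06) and without ribosomal RNA and mitochondrial genes (0.02), and ranged from -0.25 to 0.17 with 1 library left out. For 53 named genes, KLK10 among them, 3206 of 3349 recomputed values kept direction and call, 128 lost a call, 9 gained one and 6, all of KLK10, changed sign. The interaction calls were 37.5% higher (1642 and 2739 lower), against 53.4% under median-of-ratios scaling and 50.3% under quantile normalization. The median over all genes was -0.07 and 0.03 under median-of-ratios scaling. For combination against SAHA, 35.3% of calls were higher, against 49.6% under median-of-ratios scaling and 50.1% under quantile normalization.

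Same-numbered libraries showed little shared deviation (r from -0.06 to 0.11, 6 of 12 libraries closest to their own number), so the numbers were not taken as pairs. With a replicate block, calls were more in every comparison, 8441 against 8176 for SAHA against control and 4798 against 4381 for the interaction. A small shared deviation was not tested further.

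Depth is unknown, and each group has 3 libraries. Low genes such as GAL in treated libraries have folds that depend on the pseudocount.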
